A study of Mus musculus with 4 samples.

Results

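Transcripts of the T cell receptor complex and its coreceptors were measured in RNA that the labels assign to macrophages of pancreatic islets from mice on a normal chow diet (NCD) or a high-fat diet (HFD). The 10 genes were taken as a fixed list by symbol, out of 55421 gene identifiers counted. They were the CD3 chain genes Cd3e, Cd3d and Cd3g, the zeta chain gene Cd247, the coreceptor genes Cd4, Cd8a and Cd8b1, the kinase genes Lck and Zap70, and Cd28, which encodes a costimulatory receptor. All 10 had an identifier and passed the filter on low counts. Cd8b1 had no count in NCD, and Cd3d and Cd8a each had 9 counts in NCD replicate 2, under the filter's minimum of 10. Cd8b1, Cd3d and Cd8a thus passed through their HFD libraries, and a call of lower was hardly open to them. The mice of both diets were wild type (WT) and of the C57BL/6 strain, and each diet was represented by 2 libraries. The labels state no age, sex, diet composition or feeding time, and no step that separates macrophages from other islet cells. Whether both libraries of a diet were made from different mice is also unstated, so the p-values reflect only how far these libraries differ, which may be technical.

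Most T cells recognise a peptide on an MHC molecule with a receptor of variable alpha and beta chains, and others carry gamma and delta chains and mostly see other ligands. The chains of either receptor cannot signal by themselves. The CD3 and zeta chains carry the signal through tyrosine motifs called ITAMs, which the kinase Lck phosphorylates and to which the kinase ZAP-70 then binds. CD4 and CD8 bring Lck to the receptor and bind MHC class II and class I, respectively, so that they separate helper and regulatory T cells from cytotoxic ones. CD28 gives the second signal when it meets CD80 or CD86 on a presenting cell. In pancreatic islets T cells are best known from autoimmune diabetes.

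The libraries held 56740720 to 64490097 counts. Beta cell markers summed in NCD to 17171 and 17639 CPM (edgeR's counts per library size, scaled by TMM) and in HFD to 13396 and 14044 CPM. The share of endocrine cells in the RNA was not measured. For the 10 macrophage markers the sums were 960.5 and 931.9 CPM (NCD) against 851.6 and 862.5 CPM (HFD). Of these sums Lyz2 alone held 377 (NCD) and 277 CPM (HFD) in the diet means, a larger fall than that of the 10 together. For the 10 T cell genes the sums were 15.3 and 14.4 CPM (NCD) against 86.6 and 68.8 CPM (HFD). T cell transcripts were thus a small part of libraries that also held macrophage, B cell and endocrine transcripts. In such bulk RNA, fewer cells of a type and less RNA per cell cannot be told apart.

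The genes lie in few places of the genome (GRCm38, GENCODE annotation). Cd3g (chr9:44969572-44980431, minus strand), Cd3d (chr9:44981786-44987339, plus strand) and Cd3e (chr9:44998740-45009627, minus strand) form a cluster, in which Cd3d and Cd3g start 1355 bases apart and run away from each other. Cd8b1 (chr6:71322788-71337494, plus strand) and Cd8a (chr6:71373427-71379173, plus strand) are neighbours, and Cd4 (chr6:124864692-124888221, minus strand) lies on the same chromosome. Cd247 (chr1:165788681-165877277, plus strand), Zap70 (chr1:36761798-36782818, plus strand) and Cd28 (chr1:60716800-60773359, plus strand) are on chromosome 1, and Lck (chr4:129548344-129573641, minus strand) is on chromosome 4.

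The 250 bases before the start are shown for the CD3 cluster, because these neighbours encode chains of 1 complex and all rose. They are set beside Cd8a, the coreceptor gene whose change was close to theirs, and the 2 starts of Lck, whose change was smaller. Sequences are from RefSeq (GRCm38.p6), written 5′ to 3′ on the gene's strand. They come from chr9:45009612-45009861 (minus) for Cd3e, chr9:44981536-44981785 (plus) for Cd3d and chr9:44980432-44980681 (minus) for Cd3g. That of Cd8a is chr6:71373177-71373426 (plus), and those of Lck are chr4:129558373-129558622 (minus) and chr4:129573642-129573891 (minus). The capitals mark matches on either strand to 6 motifs. CAGGAA was searched as the core of ETS factor sites and TGTGGT as that of RUNX sites. For the TCF and LEF factors, to which TCF-1 belongs, the letters were CTTTGAT. An E-box was searched as CAGNTG, which E proteins bind. For GATA factors the letters were AGATAA, and the TATA box near many promoters was searched as TATAAA.
Cd3e: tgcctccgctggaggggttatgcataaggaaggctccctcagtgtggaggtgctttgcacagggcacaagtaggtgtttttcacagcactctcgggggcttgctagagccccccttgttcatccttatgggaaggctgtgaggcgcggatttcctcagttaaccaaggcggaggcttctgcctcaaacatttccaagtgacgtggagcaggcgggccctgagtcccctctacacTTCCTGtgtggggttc
Cd3d: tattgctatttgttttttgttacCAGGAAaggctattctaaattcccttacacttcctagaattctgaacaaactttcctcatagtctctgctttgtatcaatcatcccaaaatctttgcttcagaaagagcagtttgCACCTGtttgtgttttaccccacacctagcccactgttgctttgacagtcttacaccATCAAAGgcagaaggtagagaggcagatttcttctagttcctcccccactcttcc
Cd3g: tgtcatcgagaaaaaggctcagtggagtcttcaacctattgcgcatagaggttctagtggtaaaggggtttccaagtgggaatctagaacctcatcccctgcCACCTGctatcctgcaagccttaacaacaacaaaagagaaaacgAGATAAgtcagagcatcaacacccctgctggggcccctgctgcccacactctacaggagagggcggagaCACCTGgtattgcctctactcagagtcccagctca
Cd8a: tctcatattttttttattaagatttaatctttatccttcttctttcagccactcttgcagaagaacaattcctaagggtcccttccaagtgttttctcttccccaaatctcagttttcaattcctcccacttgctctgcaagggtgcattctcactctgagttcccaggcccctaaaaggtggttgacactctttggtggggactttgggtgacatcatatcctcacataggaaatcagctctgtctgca
Lck, start nearer to the coding exons: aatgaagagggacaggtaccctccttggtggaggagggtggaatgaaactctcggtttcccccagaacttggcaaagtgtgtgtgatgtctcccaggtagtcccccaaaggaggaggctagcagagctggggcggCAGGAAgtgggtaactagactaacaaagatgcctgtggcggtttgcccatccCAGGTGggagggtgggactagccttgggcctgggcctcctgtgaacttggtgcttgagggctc
Lck, far start: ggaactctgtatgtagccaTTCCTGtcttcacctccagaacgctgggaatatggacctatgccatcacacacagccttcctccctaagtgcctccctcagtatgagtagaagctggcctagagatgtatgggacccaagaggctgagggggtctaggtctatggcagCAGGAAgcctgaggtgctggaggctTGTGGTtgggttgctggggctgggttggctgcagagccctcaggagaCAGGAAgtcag
Of all 32851 windows of this length in the RefSeq table, 25.7% held the ETS letters, 14.0% the RUNX letters, 3.21% the TCF/LEF letters, 44.8% the E-box letters, 9.99% the GATA letters and 12.4% the TATA letters. The table held windows for 7 of the 10 genes, without Cd4, Cd8b1 and Cd28. These were 10 windows, with 2 for Lck and 3 for Zap70, and the shares above are per window. The ETS letters were in 6 of the 10 (those of Cd3e, Cd3d and Cd247, both of Lck and 1 of Zap70). The E-box letters were also in 6 (those of Cd3d, Cd3g and Cd247, 1 of Lck and 2 of Zap70). Cd3e held the ETS letters at 16 to 11 bases before its RefSeq start. GENCODE places that start 16 bases further upstream, so in GENCODE these are the first letters of the gene, and Cd3d held the TCF/LEF letters at 55 to 49 bases before its start. The TATA letters were in none of the 10 windows, and the window of Cd8a held no match to any of the 6 motifs. A match describes letters only, and no factor binding was measured.

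The comparison of HFD with NCD asked whether the transcripts of the T cell receptor machinery differed with diet. All 10 genes were higher in HFD, from 2.97-fold for Cd4 to 18.5-fold for Cd3d among the 9 with a count in NCD. In edgeR's quasi-likelihood test across 21563 genes with Benjamini-Hochberg adjustment, all 10 passed as higher, where 17.9% of all genes tested were called higher and 14.5% lower. Both HFD libraries lay above both NCD libraries for each of the 10, which held for 34.5% of the tested genes. Their median log2 change was 3.11, or 2.95 with Cd8b1 set to its lower bound, beside 0.00 for all genes tested. Among the 9 with a count in NCD the fitted changes were largest for the 3 CD3 chains and smallest for Cd4 and Lck, and differences between genes are taken up as ratios.

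**Figure D1:**
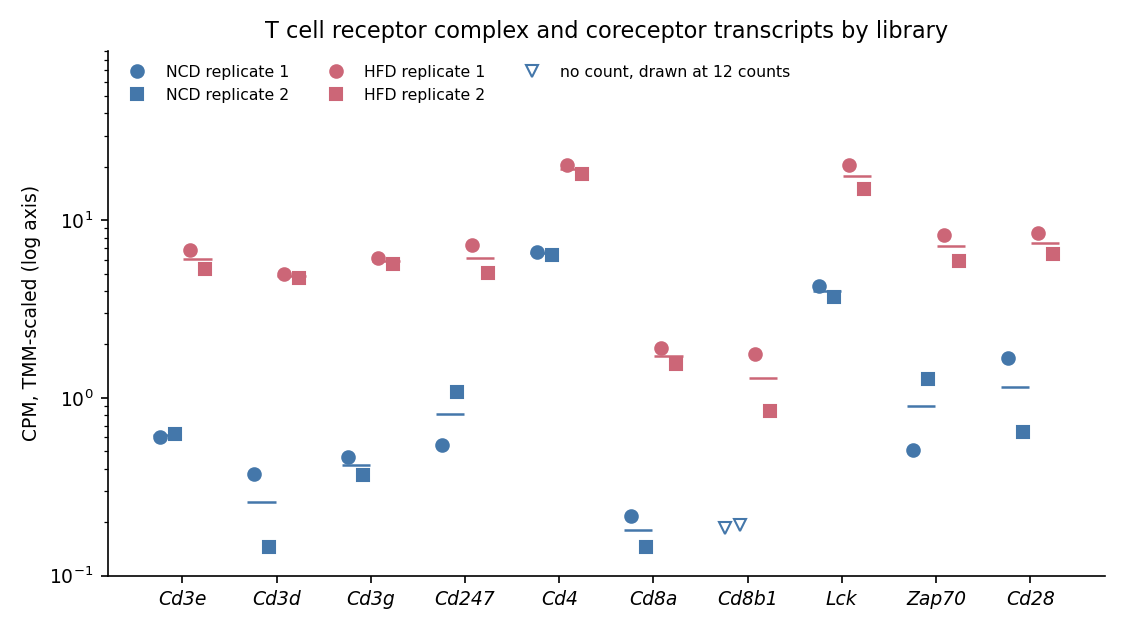
CPM on a log axis of each gene in the 4 libraries, with points for libraries and short lines for diet means. HFD points lie above NCD points in all 10 genes, and Cd4 and Lck start from the highest NCD levels, at 6.53 and 3.98 CPM.

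Cd3e, the epsilon chain that pairs with both other CD3 chains, had 39 and 39 counts in the NCD libraries and 421 and 302 in the HFD libraries. It rose from 0.616 ± 0.0159 to 6.07 ± 1.04 CPM (SD, n = 2), a log2 change of 3.30 ± 0.25 (SE, edgeR adjusted p = 0.000596). Exons of the antisense gene Gm48719 overlap it, but that gene had 0 counts in both NCD libraries and 6 and 13 in HFD.

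Cd3d, the delta chain, had 24 and 9 counts in NCD and 307 and 268 in HFD. Its level went from 0.258 ± 0.161 to 4.84 ± 0.159 CPM, the largest change among the genes with a count in NCD (log2 change 4.21 ± 0.45, edgeR adjusted p = 0.00187). Cd3g, the gamma chain, had 30 and 23 counts in NCD and 380 and 323 in HFD. It rose from 0.417 ± 0.0673 to 5.92 ± 0.306 CPM (log2 change 3.82 ± 0.25, edgeR adjusted p = 0.000406). Both genes were close between the HFD libraries, and Cd3d was uneven between the NCD libraries, where its counts were lowest. Without NCD replicate 1 the 18.5-fold change of Cd3d became 33.0-fold.

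Cd247, the zeta chain, which holds the most ITAMs of the complex and also serves receptors of NK cells, had 35 and 67 counts in NCD and 448 and 285 in HFD. It rose from 0.810 ± 0.378 to 6.13 ± 1.56 CPM (log2 change 2.92 ± 0.40, edgeR adjusted p = 0.00429). Its exons overlap those of Pou2f1 on the opposite strand, a gene with 3408 to 3752 counts per library, and those of Gm16565 on its own strand. Because no source used here gives the strand setting of the counting, the Cd247 value is uncertain. Summed, the 4 chains took 1.98 and 2.22 CPM (NCD) against 25.1 and 20.8 CPM (HFD).

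Cd4 had 428 and 399 counts in NCD and 1274 and 1029 in HFD. It was the most counted of the 10 genes in NCD and rose from 6.53 ± 0.155 to 19.4 ± 1.70 CPM, the smallest change of the 10 (log2 change 1.57 ± 0.13, edgeR adjusted p = 0.000707). In absolute terms it gained 12.8 CPM, more than any CD3 chain (4.59 to 5.50 CPM).

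Cd8a, the alpha chain shared by both forms of CD8, had 14 and 9 counts in NCD and 118 and 88 in HFD. It rose from 0.181 ± 0.0511 to 1.73 ± 0.249 CPM (log2 change 3.24 ± 0.43, edgeR adjusted p = 0.00394). Cd8b1, the beta chain found on conventional cytotoxic T cells, had no count in either NCD library and 109 and 48 in HFD. Its HFD level of 1.30 ± 0.645 CPM was at least 6.88-fold higher, with each NCD library set to 12 counts (edgeR adjusted p = 0.00564). The HFD libraries differed more in Cd8b1 than in Cd8a, with replicate 1 the higher in both.

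Lck, the kinase that starts signalling, had 274 and 231 counts in NCD and 1268 and 851 in HFD. It rose from 3.98 ± 0.377 to 17.8 ± 3.85 CPM (log2 change 2.16 ± 0.20, edgeR adjusted p = 0.00110). Zap70, the kinase that docks on the phosphorylated ITAMs, had 33 and 80 counts in NCD and 515 and 336 in HFD. It rose from 0.899 ± 0.548 to 7.12 ± 1.69 CPM (log2 change 2.99 ± 0.46, edgeR adjusted p = 0.00655). Cd28 had 108 and 40 counts in NCD and 525 and 364 in HFD, and rose from 1.16 ± 0.729 to 7.45 ± 1.45 CPM (log2 change 2.68 ± 0.46, edgeR adjusted p = 0.00935). Zap70 and Cd28 were uneven between the NCD libraries in opposite directions, with Zap70 higher in replicate 2 and Cd28 higher in replicate 1. The 7.93-fold change of Zap70 became 13.8-fold without NCD replicate 2, and the 6.41-fold change of Cd28 became 11.5-fold without NCD replicate 1.

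Levels were compared between genes per kilobase of annotated exon, which counts the exons of all transcripts of a gene and so understates genes with many unused exons. In NCD Cd4 (1.62 CPM per kb) and Lck (1.36) lay apart from the other 8 genes. Zap70, Cd28, Cd247, Cd3e, Cd3d and Cd3g followed at 0.300 to 0.128 CPM per kb, and each overlapped its neighbour in this order over the libraries. Cd8a (0.0497) was lower still. In HFD Lck led at 6.06 CPM per kb, ahead of Cd4 at 4.80, without overlap. Cd3d (2.67) and Zap70 (2.38) overlapped each other, Cd3g (1.81) and Cd3e (1.49) stood apart from the gene above them, and Cd28 (1.22), Cd247 (1.15) and Cd8b1 (0.879) overlapped their neighbours. Cd8a was lowest at 0.476 CPM per kb.

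Ratios within a library do not depend on the scaling between libraries. The Cd4 to Cd8a count ratio was 30.6 and 44.3 in NCD and 10.8 and 11.7 in HFD, 3.28-fold lower in HFD. The diets did not overlap (exact two-sided permutation test, p = 0.3333, the smallest this test can give with 2 against 2 libraries). Per kilobase the ratio was 27.6 and 40.0 in NCD and 9.74 and 10.5 in HFD. The NCD ratios rest on 14 and 9 Cd8a counts, the lower of them under the floor of 12 counts, so they are rough. Against Cd8b1 the Cd4 ratio was 11.7 and 21.4 in HFD and at least 35.7 and 33.3 in NCD, with Cd8b1 set to 12 counts there. Within HFD, Cd8a and Cd8b1 were counted at a ratio of 1.08 in replicate 1 and 1.83 in replicate 2.

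Set against the summed counts of Cd3e, Cd3d and Cd3g, a comparison chosen after the values were seen, Cd4 gave 4.60 and 5.62 in NCD and 1.15 and 1.15 in HFD. For Lck the ratios were 2.95 and 3.25 in NCD and 1.14 and 0.953 in HFD. Both genes thus had 3 to 6 counts per CD3 count in NCD and close to 1 in HFD, without overlap between diets. For Cd8a the ratios lay between 0.127 and 0.151 in NCD and were 0.107 and 0.0985 in HFD. Cd28 gave 1.16 and 0.563 in NCD and 0.474 and 0.408 in HFD. Zap70 (0.355 and 1.13 against 0.465 and 0.376) and Cd247 (0.376 and 0.944 against 0.404 and 0.319) overlapped between the diets. With 2 libraries per diet the exact permutation test could not give a p under 0.3333 for any of these comparisons, and no other test was made on the ratios.

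**Figure D2:**
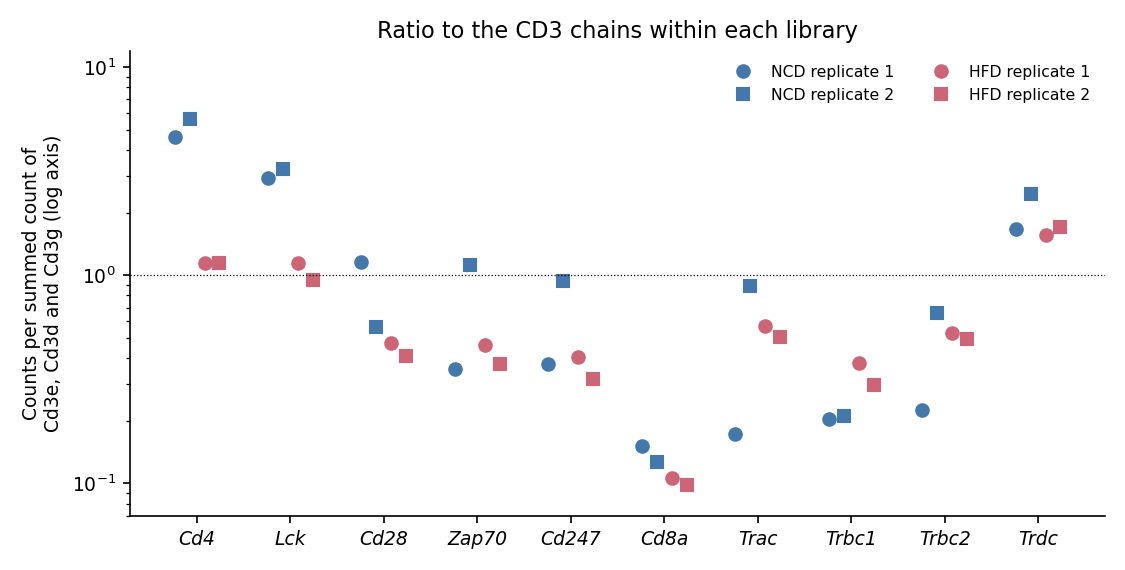
Counts of each gene divided by the summed counts of Cd3e, Cd3d and Cd3g in the same library, on a log axis, with the dotted line at 1. Cd4 and Lck lie between 2.95 and 5.62 in NCD and between 0.953 and 1.15 in HFD, while Zap70, Cd247, Trac, Trbc2 and Trdc overlap between the diets.

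Other cells can carry some of these transcripts. In mice, CD4 is also on subsets of dendritic cells, CD8 alpha on others, and Lck and the zeta chain are found in NK cells. The 11 dendritic cell markers summed to 33.4 and 28.7 CPM (NCD) against 84.7 and 84.1 CPM (HFD), and 5 of the 8 tested rose, led by Flt3, Wdfy4, Zbtb46 and Itgae. Wdfy4 alone held 17.1 (NCD) and 44.0 CPM (HFD) of these sums in the diet means. Itgae, with 8 and 4 counts in NCD, passed the filter on low counts through its HFD libraries. Clec9a, Siglech and Ccr9 did not pass (edgeR adjusted p = 0.121, 0.449 and 0.935). Xcr1, with 0 and 4 counts in NCD and 12 and 3 in HFD, was not tested. Cd209a had no count in any library, Clec4a4 had none in NCD, and the plasmacytoid marker Siglech had 61 and 26 counts in NCD and 26 and 25 in HFD. The 9 NK cell markers were near 0, summing to 0.202 and 0.0322 CPM (NCD) against 1.39 and 1.96 CPM (HFD). Klre1 and Klra8 had no count in any library, Ncr1 had none in NCD, and 2 of the 9 could be tested, of which Klrd1 rose. Klrd1 and Klri2, the tested genes, passed the filter on low counts through their HFD libraries. The call of Klrd1 was lost without HFD replicate 2 (edgeR adjusted p = 0.113). The part of dendritic and NK cells in the values of Cd4, Lck and Cd247 was not tested.

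The receptor chains that CD3 accompanies were counted as gene segments. Their variable, joining and constant segments together had 319 and 349 counts in NCD and 4610 and 3645 in HFD, or 4.95 and 5.61 against 74.4 and 64.4 CPM, 13.1-fold higher in HFD. Of 222 such segments 33 had a count in NCD and 136 in HFD. The 25 with enough counts to be tested gave 18 higher and 0 lower. Apart from Trac, Trbc1, Trbc2 and Trdc, they passed the filter through their HFD libraries and could hardly be called lower. Trac, the constant region of the alpha chain, had 16 and 63 counts in NCD and 631 and 451 in HFD (log2 change 3.85 ± 0.60, edgeR adjusted p = 0.00659). Trbc1 had 19 and 15 counts against 418 and 265 (log2 change 4.40 ± 0.33, edgeR adjusted p = 0.000556). Trbc2, the other beta constant region, had 21 and 47 against 586 and 441 (log2 change 3.99 ± 0.41, edgeR adjusted p = 0.00158). The beta constant regions are near-identical copies, so reads may be split between them. Trac and Trbc2 were uneven between the NCD libraries. The 14.4-fold change of Trac became 8.93-fold without NCD replicate 1 and 36.2-fold without NCD replicate 2, and the 15.9-fold change of Trbc2 became 26.2-fold without NCD replicate 2.

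Trdc, the delta constant region, was the most counted segment, with 156 and 174 counts in NCD and 1732 and 1525 in HFD (log2 change 3.39 ± 0.13, edgeR adjusted p = 9.40e-05). Its annotated exons span 3865 bases, against 935 for Trac, and overlap Trdv5 on the other strand and the antisense gene Gm43434. The 5 delta variable segments had 8 and 9 counts in NCD and 90 and 78 in HFD, and the 15 gamma segments 7 and 9 in NCD and 112 and 162 in HFD. Delta and gamma variable segments were thus far less counted than the delta constant region. Among the gamma constant regions Tcrg-C1 had 0 and 9 counts in NCD and 50 and 90 in HFD and did not pass (edgeR adjusted p = 0.0502), but passed without either NCD library (edgeR adjusted p = 0.0431 without replicate 1 and 0.00995 without replicate 2). Tcrg-C4 had none in NCD and 17 and 24 in HFD (edgeR adjusted p = 0.0220), a call lost when any 1 of the 4 libraries was left out (edgeR adjusted p = 0.0655 to 0.152).

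Beta variable segments were spread over many genes. Of the 22 annotated, 6 and 3 had a count in the NCD libraries and 19 and 18 in the HFD libraries, with 55 and 11 counts against 691 and 485. The most counted one in HFD was Trbv16 in replicate 1, with 76 counts or 11.0% of the beta variable counts, and Trbv13-2 in replicate 2, with 64 counts or 13.2%. Of 16 tested 11 rose. All 16 passed the filter on low counts through their HFD libraries and could hardly be called lower, so that none fell carries no information. The 108 alpha variable segments had 29 and 17 counts in NCD and 281 and 180 in HFD, too few for a test of any. Variable segments have near-identical copies, so counts of single segments are uncertain.

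**Figure D3:**
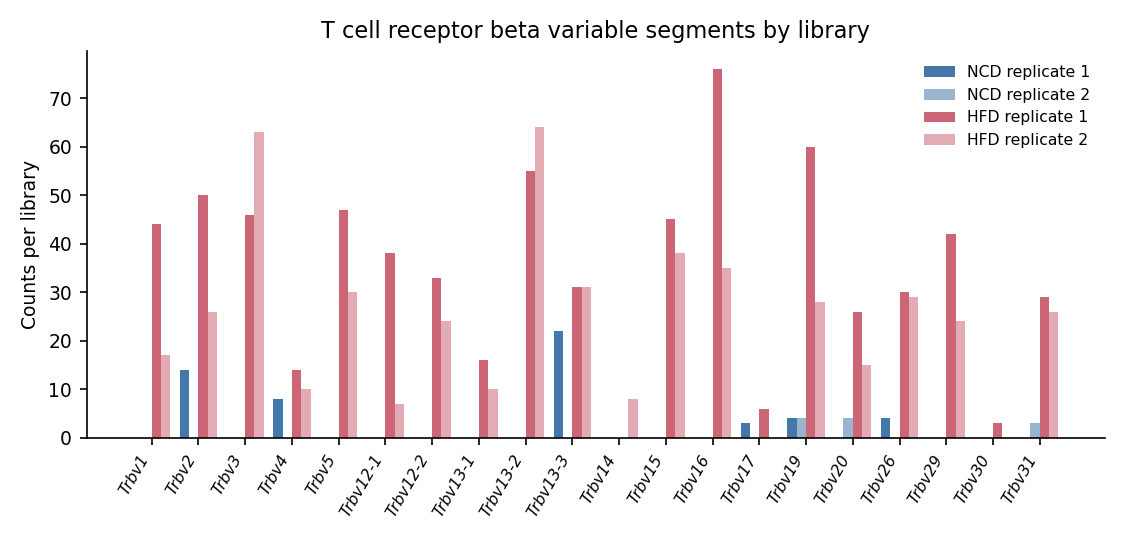
Counts of each T cell receptor beta variable segment with a count in any library, as 1 bar per library. Segments with counts are spread across the locus in both HFD libraries, up to 76 counts for Trbv16, and in NCD the highest is Trbv13-3 with 22 counts in replicate 1.

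The remaining genes of the pathway were grouped by role. Beside the calls in each group stand the shares of all genes tested, 17.9% called higher and 14.5% lower by edgeR. Of 20 proximal signalling genes 17 rose and 1 fell (median log2 change 1.21). Prkcq, a protein kinase C of T cells, rose from 24 and 21 counts to 379 and 332 (log2 change 4.07 ± 0.24, edgeR adjusted p = 0.000288). Lcp2, an adaptor that myeloid cells also use, rose from 6.17 ± 0.287 to 22.4 ± 0.927 CPM. For Ptprc, whose product CD45 is on every kind of leukocyte, the level rose from 53.7 ± 1.49 to 132 ± 2.86 CPM. Both of these genes had log2 changes under 2, and the part of other leukocytes in their values was not tested. Skap1, an adaptor, was the gene that fell, from 34.8 ± 3.03 to 16.5 ± 0.217 CPM (edgeR adjusted p = 0.00105). Plcg1 and Nck1 did not pass (edgeR adjusted p = 0.814 and 0.329).

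Of 17 negative regulators of the receptor 9 rose and none fell (median log2 change 1.22), beside 14 called higher by DESeq2. Ptpn22, a phosphatase acting on Lck, rose from 3.36 ± 0.366 to 21.9 ± 0.977 CPM (edgeR adjusted p = 0.000201). Cd6 rose from 18 and 19 counts to 375 and 286, and Ubash3a, a T cell inhibitor of ZAP-70 signalling, from 7 and 9 to 181 and 144. Ubash3b, its widely expressed relative, rose from 5.22 ± 0.0344 to 18.4 ± 0.364 CPM. Csk, Pag1, Ptpn6, Cbl, Dok1 and Dgkz did not pass, and neither did Sla2 and Sit1, with 3 to 26 and 0 to 8 counts in NCD. The 5 further calls of DESeq2 were Csk, Sla2, Cbl, Dok1 and Sit1. By edgeR 4 of them passed when 1 library was left out, Csk without HFD replicate 1 (adjusted p = 0.0291), Sla2 and Dok1 without NCD replicate 1 (0.0108 and 0.0459) and Sit1 without NCD replicate 2 (0.0203).

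Of 15 costimulatory and coinhibitory receptors 14 rose (median log2 change 3.20) and Havcr2, also a gene of macrophages and dendritic cells, did not (edgeR adjusted p = 0.572). Tnfrsf9, encoding 4-1BB, rose from 3.14 ± 0.455 to 30.8 ± 4.39 CPM, Icos, a relative of Cd28, from 0.521 ± 0.00886 to 6.48 ± 0.199, Cd2 from 1.69 ± 0.392 to 15.8 ± 1.05 and the inhibitory receptor gene Btla, which B cells also carry, from 1.42 ± 0.287 to 13.1 ± 2.28. Named after their values were seen, Ctla4, which competes with CD28 for its ligands, rose from 98 and 50 counts to 809 and 514 (edgeR adjusted p = 0.00216). Its count ratio to Cd28 was 0.907 and 1.25 in NCD and 1.54 and 1.41 in HFD.

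All 10 tested ligands of these receptors rose, out of 11 listed (median log2 change 1.42). The ligands of CD28 itself, Cd80 and Cd86, rose from 1.94 ± 0.0725 to 10.5 ± 0.543 CPM and from 4.26 ± 0.247 to 20.7 ± 2.07 CPM (edgeR adjusted p = 0.000413 and 0.000313). Pvr, a ligand of DNAM-1 and TIGIT, rose from 51.5 ± 0.650 to 112 ± 3.90 CPM, and Nectin2, which has the same receptors, from 20.7 ± 0.0430 to 37.5 ± 1.33.

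**Figure D4:**
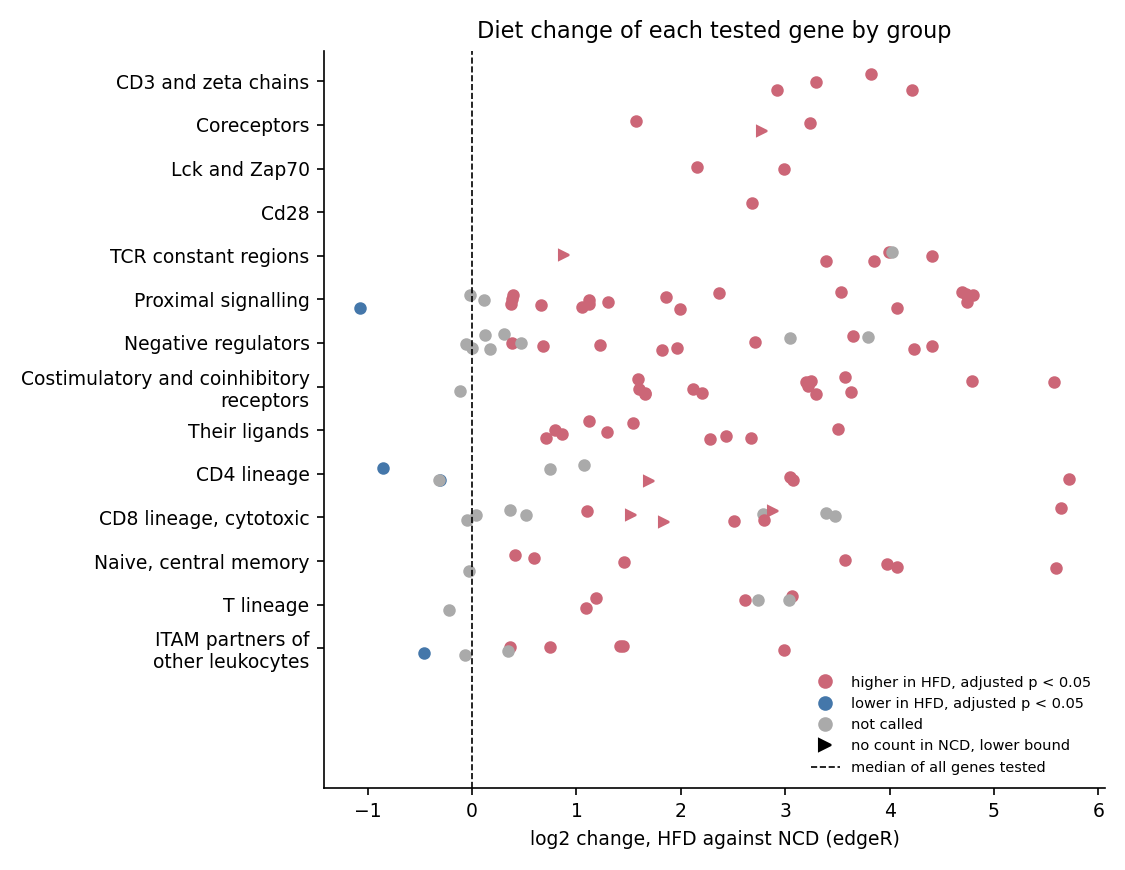
The log2 change of HFD against NCD (edgeR) for each tested gene, by group. Points are coloured by call, triangles give lower bounds of genes without a count in NCD, and the dashed line is the median of all genes tested. The CD3 and zeta chains lie between 2.92 and 4.21, and Skap1, Zbtb7b and Tyrobp are among the genes called lower.

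Genes that separate the CD4 from the CD8 lineage were compared next. Of 9 tested CD4 lineage genes, out of 11 listed, 4 rose and 2 fell (median log2 change 1.07). Foxp3, the factor of regulatory T cells, had 66 and 28 counts in NCD and 439 and 291 in HFD (log2 change 3.05 ± 0.43, edgeR adjusted p = 0.00493). Without NCD replicate 1 its 8.27-fold change became 13.5-fold. Its exons overlap those of Ccdc22, Ppp1r3f, Flicr and Gm36995. Cxcr5, of follicular helper T cells and B cells, rose from 115 and 69 counts to 784 and 663 (edgeR adjusted p = 0.000846), and its exons overlap those of Bcl9l. Cd40lg, the helper ligand, had no count in NCD and 53 and 21 in HFD, at least 3.24-fold above the floor (edgeR adjusted p = 0.0144), a call lost without HFD replicate 1 (edgeR adjusted p = 0.105). Gata3 also passed, but not without HFD replicate 2 (edgeR adjusted p = 0.00974 and 0.0590).

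Zbtb7b, which encodes the CD4 lineage factor ThPOK, went the other way and fell from 139 ± 1.71 to 112 ± 2.72 CPM (edgeR adjusted p = 0.00752). Per kilobase it stood above all 10 T cell genes in NCD. Il17a had no count in any library, Il13 had 5 counts in 1 HFD library, and Il4 had 51 and 51 counts in NCD and 45 and 32 in HFD without passing (edgeR adjusted p = 0.617). Ikzf2 had 160 and 1138 counts in the NCD libraries and 1042 and 1025 in HFD and did not pass (edgeR adjusted p = 0.541). Without NCD replicate 2 it passed as higher (log2 change 2.81, edgeR adjusted p = 0.000939), which made 5 genes of the list higher.

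Of 14 tested CD8 lineage and cytotoxic genes, out of 16 listed, 7 rose and none fell (median log2 change 2.79, or 2.17 with genes at 0 in NCD set to their bounds). Among those called higher, Gzmk, Eomes, Fasl, Prf1 and Klrk1 did not reach 10 counts in both NCD libraries. They passed the filter on low counts through their HFD libraries and could hardly be called lower. Gzmk, a granzyme, had no count in NCD and 76 and 89 in HFD, at least 7.38-fold above the floor (edgeR adjusted p = 0.00284). Gzmb rose from 20 and 17 counts to 114 and 85 (edgeR adjusted p = 0.00611). Prf1, encoding perforin, had 0 and 4 counts in NCD and 77 and 121 in HFD (edgeR adjusted p = 0.00909, and 0.0528 without HFD replicate 2). Fasl had none in NCD and 52 and 29 in HFD, at least 3.57-fold above the floor (edgeR adjusted p = 0.00965, and 0.0759 without HFD replicate 1). Without HFD replicate 1 the list had 4 genes higher. Ifng had no count in NCD and 8 and 4 in HFD, and Ccl5, which many leukocytes make, stood at 25.5 ± 1.85 and 26.1 ± 1.79 CPM (edgeR adjusted p = 0.843).

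Of 8 genes of naive and central memory T cells 7 rose (median log2 change 2.52), and Satb1 did not pass (edgeR adjusted p = 0.770). Tcf7, encoding TCF-1, rose from 140 and 131 counts to 2482 and 1817 (log2 change 4.08 ± 0.16, edgeR adjusted p = 9.19e-05). Ccr7, the homing receptor for lymphoid tissue, rose from 525 and 454 counts to 6364 and 4620. S1pr1, also a gene of endothelium, rose from 111 ± 2.66 to 168 ± 7.89 CPM. Ccr7 is carried by B cells and mature dendritic cells too.

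Of 7 other T lineage genes 4 rose and 3 did not pass (median log2 change 2.61). Thy1 rose from 1.38 ± 0.259 to 11.5 ± 0.872 CPM, Bcl11b, a factor of T cell commitment, from 1.28 ± 0.100 to 7.84 ± 2.27, Ets1 from 53.3 ± 1.45 to 113 ± 0.736 and Ikzf3 from 17.3 ± 0.849 to 39.3 ± 0.237. In NCD, Ets1 and Ikzf3 stood far above the CD3 and zeta chains, which had 0.258 to 0.810 CPM there. The part of other cells in the values of Ets1 and Ikzf3 was not tested. Tox, Cd7 and Trat1 did not pass (edgeR adjusted p = 0.110, 0.132 and 0.0505). DESeq2 called Cd7 and Trat1 higher (DESeq2 adjusted p = 0.0259 and 0.00343), 6 of the list in all. By edgeR, Cd7 passed without NCD replicate 1 (adjusted p = 0.0170) and Trat1 without HFD replicate 2 (0.0441).

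Kinases and adaptors that do the work of Lck, ZAP-70 and zeta in other leukocytes were listed separately. Of these 8 genes 5 rose and 1 fell (median log2 change 0.55), with 2 or 3 higher when any 1 library was left out. Syk, the relative of ZAP-70 in B cells and macrophages, rose from 38.5 ± 0.427 to 105 ± 1.65 CPM (edgeR adjusted p = 9.40e-05), and Blk, a B cell relative of Lck, from 1.97 ± 0.0287 to 15.7 ± 4.02 CPM. Lyn, another relative, rose from 46.1 ± 1.02 to 59.4 ± 3.04 CPM (edgeR adjusted p = 0.0128), but did not pass without NCD replicate 1 or without HFD replicate 1 (edgeR adjusted p = 0.0602 and 0.0619). Tyrobp, an ITAM adaptor of macrophages and NK cells, fell from 34.7 ± 3.10 to 25.3 ± 1.59 CPM (edgeR adjusted p = 0.0208), and likewise did not pass without either of them (edgeR adjusted p = 0.0864 and 0.0948). Fcer1g, which can stand in for zeta, was at 34.7 ± 0.382 and 33.0 ± 0.147 CPM and did not pass (edgeR adjusted p = 0.507). The ratio of Zap70 to Syk counts was 0.0134 and 0.0331 in NCD and 0.0799 and 0.0557 in HFD.

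Markers of B cells and of lymph node stroma moved with the T cell genes. The 10 B cell markers summed to 36.1 and 35.8 CPM (NCD) against 213 and 220.1 CPM (HFD), and 9 rose. The 6 markers of lymph node stroma and its vessels summed to 0.698 and 0.129 CPM (NCD) against 31.4 and 26.0 CPM (HFD). All 5 tested rose, but they passed the filter on low counts through their HFD libraries and could hardly be called lower. Chst4, with 5 and 0 counts in NCD and 9 and 0 in HFD, was not tested. Cxcl13, a B cell attractant, had 33 and 8 counts in NCD and 1000 and 1061 in HFD, a 53.8-fold change that became 133-fold without NCD replicate 1 and 33.8-fold without NCD replicate 2. Ccl21a, which draws CCR7-bearing cells and has near-identical copies, had none in NCD and 653 and 203 in HFD. Glycam1, of the vessels through which lymphocytes enter lymph nodes, had none in NCD and 86 and 61 in HFD, at least 6.51-fold above the floor, and Ccl19 had none in NCD and 41 and 50 in HFD (edgeR adjusted p = 0.00711, and 0.0589 without HFD replicate 2). The part of lymphoid tissue in the T cell values was not tested. Cd79b, Ms4a1 and Bank1 were among the B cell markers that rose, Cd79b from 4.29 ± 0.0676 to 28.8 ± 0.124 CPM (edgeR adjusted p = 9.27e-05). Of the 10 macrophage markers 3 rose, among them Cd14 from 32.3 ± 3.50 to 104 ± 9.30 CPM (edgeR adjusted p = 0.000341), and 5 fell, among them Lyz2 from 377 ± 6.34 to 277 ± 3.18 CPM (edgeR adjusted p = 0.000998). These counts of calls changed, with 1 higher when any 1 library was left out and 2 lower without NCD replicate 1 or HFD replicate 1.

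**Figure D5:**
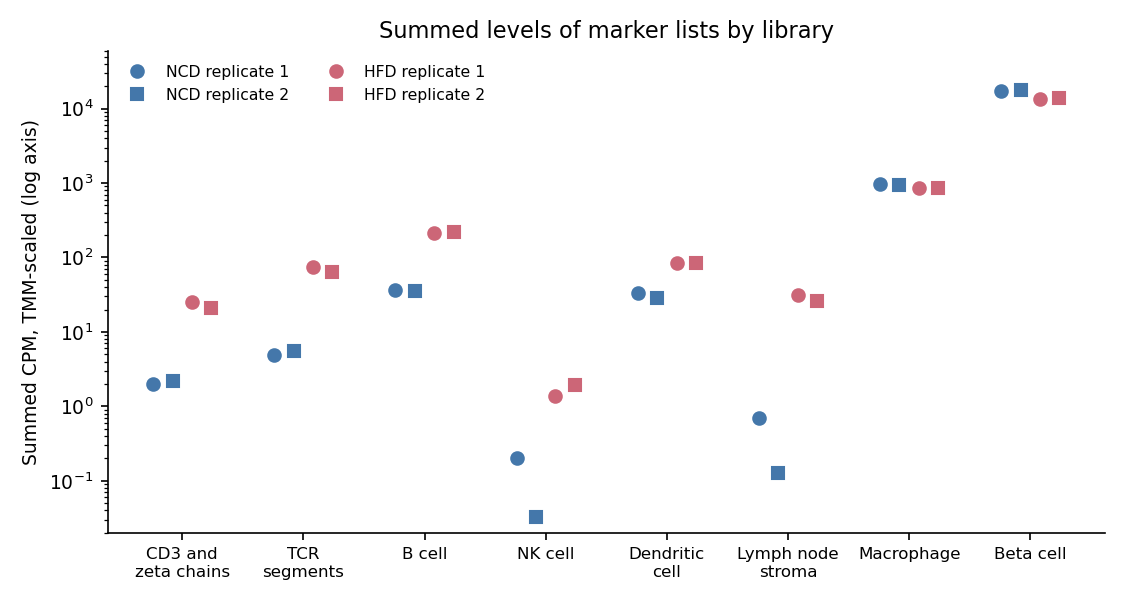
Summed CPM of each marker list in the 4 libraries, on a log axis. T cell receptor, B cell, NK cell, dendritic cell and lymph node stroma lists are higher in both HFD libraries, the NK list while staying under 2 CPM. Macrophage and beta cell lists are lower, the macrophage sums at 851.6 and 862.5 CPM in HFD. Lyz2 alone went from 377 to 277 CPM in the diet means, and 3 of the 10 macrophage markers were called higher and 5 lower.

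The genes whose pattern over the 4 libraries was most like that of the CD3 and zeta chains were found among 14013 protein-coding genes whose mean reached 1 CPM. Likeness was the root mean square difference of centred log2 CPM from the mean profile of the 4 chains, over 4 libraries. The closest non-members were Cdh11 (0.0237), Il12rb1 (0.0358), Ccr7 (0.0370), Serpinb6b (0.0592) and Ifi205 (0.0611). Among the 10 genes themselves the distances ran from 0.137 for Cd3g to 0.978 for Cd4. With 4 libraries, any gene of similar fold change and replicate difference lies close, so this order is a description.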

How the data were processed

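RNA was sequenced from 2 NCD and 2 HFD libraries, grouped by their titles. The authors deposited 1 table of raw counts per library, over Ensembl genes, with 56740720 to 64490097 counts each. The submitters' processing notes name HISAT, featureCounts 1.5.0, DESeq 1.8.3 and GRCm38, but not what each was used for. The library kit was stranded, per the labels' protocols; how the counting used strand is not stated.

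Symbols, coordinates and exon lengths came from GENCODE M21 (GRCm38), in which 55154 of 55421 identifiers had a symbol. Counts were fitted in R 4.3.3 with edgeR 4.0.16 (filterByExpr with a minimum count of 10, TMM, quasi-likelihood F test, no block) over 21563 genes, and Benjamini-Hochberg adjusted p under 0.05 was called. SEs are the log2 change divided by the root of the F statistic. The common biological coefficient of variation was 19.1%. The filter asked for about 10 counts in 2 libraries. Genes short of that in NCD were tested only through their HFD counts and could hardly be called lower. Several lists held such genes.

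Low counts were 1.57 to 1.63 times as frequent at multiples of 4 as at their neighbours, for a reason not stated. A gene without a count in NCD was therefore set to 3 such steps, 12 counts per library, and its fold is a lower bound. Floors cover counting error only.

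The genes and lists were chosen with earlier results of these data known. Besides the 10 genes, up to 4 tested genes with the smallest p were named from each list, and the 5 most alike in pattern. Genes named as not passing or against their list, those with low counts, and single receptor segments were picked with their values in view. Some marker lists are given by sums. Some genes of the lists are not reported here by name, though list counts and sums include them. Alternatives were DESeq2 1.42.0 (size factors and Wald test), limma 3.58.1 voom, other count filters, counts divided by 4, library sizes without genes over 1% of a library, a replicate block and leaving out each library. Where leaving out a library left 1 in a diet, its variation was taken to equal that within the other diet.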

Additional observations from a re-analysis of the deposited data

How the results depend on the processing

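All 10 genes were higher with an adjusted p under 0.05 in every alternative that tested them. With a mean of at least 1 CPM required, Cd8a and Cd8b1 were not tested and 8 genes were called. The highest adjusted p over the alternatives ran from 0.00297 for Cd3g to 0.0374 for Cd8b1. The log2 change of Cd3d ran from 3.69 to 5.04, that of Cd28 from 2.15 to 3.53, that of Zap70 from 2.47 to 3.79, and that of Cd4 from 1.48 to 1.65. The fall of the Cd4 to Cd8a ratio in log2 units ran from -1.98 to -1.44 when 1 library was left out, and the 13.1-fold difference in receptor segments from 12.2-fold to 14.1-fold.

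The diet replicates share numbers, but deviations of libraries with the same number had a correlation of 0.00211, and the labels tie them to no animal or batch. With the replicate number as a block, the count of genes higher was 3252 and that of genes lower 2583, beside 3860 and 3123, and all 10 T cell genes were called. With the block the list of ITAM partners of other leukocytes had 3 genes higher and that of macrophage markers 1, and Tcrg-C1, Sla2 and Trat1 passed (edgeR adjusted p = 0.0488, 0.0271 and 0.0447).

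Leaving out 1 library gave 2015 to 2174 genes lower. It gave 4 to 8 cytotoxic genes higher, 2 or 3 ITAM partners higher and 0 or 1 lower, 0 to 2 NK cell markers higher, and 1 macrophage marker higher and 2 to 5 lower. DESeq2's Wald test called 14 negative regulators and 2 NK cell markers higher. Requiring 1 CPM left 2 CD4 lineage genes, 1 cytotoxic gene, 0 NK cell markers and 3 lymph node stroma markers higher. Without the count filter 3 ITAM partners and 1 macrophage marker were higher, and with counts divided by 4 no NK cell marker (0) was. Fewer genes were tested under the 1 CPM requirement and with divided counts, and fewer libraries entered when 1 was left out; other causes were not tested. The median of all genes moved by less than 0.1 on the log2 scale in all of these fits. With 2 libraries per diet, the exact permutation test on ratios could not reach a p under 0.3333, and genes with under about 12 counts in NCD have only a rough fold.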
